A study of Gallus gallus with 12 samples.

Results

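Smooth muscle contracts when calcium-bound calmodulin switches on myosin light chain kinase, which lets smooth muscle myosin pull on actin filaments. Caldesmon and transgelin sit on those filaments, and adaptor proteins tie the filaments to the cell membrane. The wall of the hen's oviduct holds layers of such muscle, and the segment studied here, the utero-vaginal junction (UVJ), lies between the shell gland and the vagina and stores sperm in tubules of its mucosa.

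Transcripts of smooth muscle contractile genes were examined in the UVJ of White Leghorn hens. Members were found by the symbol that the array gives for a feature, a feature being the set of probes for 1 transcript. Of 10 genes looked for, 7 were matched, each by 1 feature of 37374. They were ACTA2, MYH11, MYLK, TAGLN, CALD1, LDB3 and ITGB1BP2. ACTG2, CNN1 and DES matched no feature by symbol or RefSeq accession and were not analysed here. A further 7 features carried the chicken UniProt name of MYH11, MYLK or CALD1. They are no members and served as a second reading of those genes.

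The samples were UVJs of 12 hens, each on an array of its own, taken 24 h after treatment. Mated hens (n = 4) had each been paired with 1 male. SF-infused hens (n = 4) had received seminal fluid (SF) without sperm, placed in the cloaca, from the same males. Control hens (n = 4) had been neither mated nor inseminated, so that the fluid and the act of infusing it cannot be told apart. The 12 arrays were numbered in the order control, mated and SF, so that the array number and the treatment cannot be told apart. With the number as a covariate, a straight-line trend is fitted from the order of arrays within groups and carried across the groups. That widens the error of each difference, so calls lost or signs turned in such a fit cannot decide between order and treatment. RNA came from whole tissue, in which fewer muscle cells and less RNA per muscle cell cannot be told apart. Both treatments were compared with the same 4 control arrays.

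Values are log2 of the deposited intensity, given as mean ± SD with n = 4, and a difference of 1 on this scale is a doubling. Levels depend on each feature's probes and were compared between hens, not between genes. Array medians were alike, at 1077 to 1101.6 on the linear scale. Arrays of the same group correlated across features at r = 0.94 to 0.99. The random-sequence control, a measure of background, lay at log2 3.81 to 3.95, and all 7 members were above it on all 12 arrays. No feature passed an adjusted p of 0.05 in any comparison (limma with Benjamini-Hochberg adjustment over 37374 features, smallest adjusted p 0.641), so unadjusted p below 0.05, which the study terms suggestive, is given beside the share of all features that reached it.

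For the measured genes of the contractile machinery itself, group means after mating and after SF-infusion lay near the control means. ACTA2, MYH11, MYLK, TAGLN and CALD1 differed from controls by between -0.25 and 0.10 in all, and none reached an unadjusted p of 0.05. Below the control mean after both treatments were MYH11, MYLK, CALD1, LDB3 and ITGB1BP2, and only ITGB1BP2 was past the unadjusted threshold, in both comparisons. The differences were largest for ITGB1BP2 and LDB3, which code for proteins best known from mammalian heart and skeletal muscle. These were also the dimmest members, at percentiles 26.4 and 37.8 of mean level, against 87.6 to 99.1 for the others. Features of like brightness had a median SD of 0.391 and 0.382 within groups, against 0.101 to 0.176 for the other members. Whether brightness had a part in the larger differences was not tested. After mating 1 of 7 members was called, where 2.22% of all features were called. After SF-infusion 1 of 7 was called, where 6.47% of all features were called. With 7 members, 1 call in each comparison is a small count, and no statement about the group was drawn from it.

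**Figure D1:**
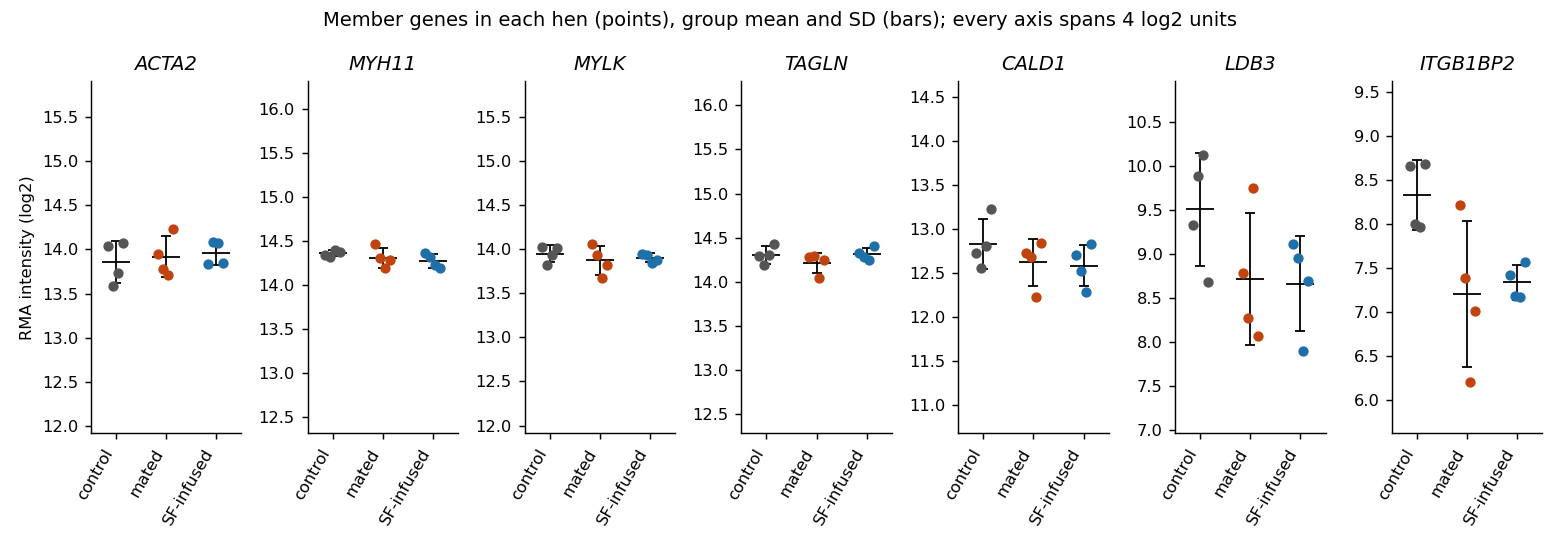
Log2 RMA intensity of the 7 member genes by group, 1 point per hen, with group mean (horizontal bar) and SD (whiskers). Each vertical axis spans 4 log2 units around the gene's own mean, so the spread can be compared between genes but the height cannot; ITGB1BP2 lay between 7.96 and 8.68 in controls and between 7.17 and 7.57 after SF-infusion.

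ITGB1BP2 codes for melusin, a protein that binds the cytoplasmic tail of beta-1 integrin and is known in the mammalian heart for sensing mechanical load. In controls it read 8.66, 8.00, 7.96 and 8.68. In mated hens it read 8.21, 7.38, 6.21 and 7.01. In SF-infused hens it read 7.42, 7.18, 7.17 and 7.57. All 4 SF-infused hens were below all 4 controls, whereas mated replicate 1 lay above control replicates 2 and 3 and the other mated hens below every control.

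The ITGB1BP2 level fell from 8.33 ± 0.40 in controls to 7.20 ± 0.83 after mating, by 1.12 (SE 0.36), a 2.18-fold lower intensity. The unadjusted limma p was 0.00918 and the adjusted p 1.0. An exact two-sided permutation test of the same 8 arrays gave p = 0.0857. After SF-infusion the level was 7.33 ± 0.20, lower by 0.99 (difference -0.99, SE 0.36), with unadjusted p = 0.0177, adjusted p = 0.735 and exact permutation p = 0.0286, the smallest that 4 against 4 allows. Groups that do not overlap were found in 3.84% of all features after SF-infusion and in 1.34% after mating. Features called in the lower direction were 2.32% of all after SF-infusion and 0.867% after mating, against 4.15% and 1.35% called higher.

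Leaving out any 1 of the 12 arrays kept ITGB1BP2 past the unadjusted threshold in both comparisons, with differences of -1.46 to -0.79 for mating and -1.11 to -0.87 for SF-infusion. The highest unadjusted limma p among these fits was 0.0279 for mating and 0.0495 for SF-infusion. Weighting arrays by their quality took mating to -0.68 with unadjusted p = 0.0552, and adding the array number as a covariate took SF-infusion to 0.158. ITGB1BP2 also scattered more among hens of 1 group than the median feature of like brightness, with a pooled SD of 0.545 against 0.391. Of those features 67.3% had a smaller SD. Scatter above the median of like features was also seen in ACTA2 (0.207 against 0.108), LDB3 (0.648 against 0.382) and CALD1 (0.264 against 0.176). In these 83.4%, 78.6% and 74.8% of like features had a smaller SD. MYLK lay just above its median (0.113 against 0.108).

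LDB3 codes for a PDZ and LIM domain protein of the Z-disc, the plate that anchors actin filaments in mammalian striated muscle, where it is also called ZASP or Cypher. Control hens read 9.33, 9.89, 10.13 and 8.68. Mated hens read 8.78, 8.28, 9.75 and 8.07. SF-infused hens read 9.11, 8.96, 7.90 and 8.69. Control replicates 2 and 3 and mated replicate 3 were the highest, and the groups overlapped in both comparisons.

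LDB3 averaged 9.51 ± 0.64 in controls, 8.72 ± 0.75 in mated and 8.66 ± 0.54 in SF-infused hens. The difference was -0.78 for mating (SE 0.42, 95% confidence interval -1.71 to 0.14, unadjusted p = 0.089) and -0.84 for SF-infusion (SE 0.42, interval -1.77 to 0.08, unadjusted p = 0.0707). Exact permutation p were 0.171 and 0.143. Whether LDB3 counted as suggestive depended on single hens. Without control replicate 4 the unadjusted limma p were 0.0296 and 0.0234, and without mated replicate 3 they were 0.0138 and 0.0372. The count of members called was then 2 of 7 in each comparison, while the share of all features called was 2.68% for mating and 8.21% for SF-infusion without control replicate 4, and 5.64% and 8.64% without mated replicate 3.

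MYH11, the heavy chain of smooth muscle myosin, had the smallest scatter of the members. Its pooled SD was 0.082, against a median of 0.101 for features of like brightness. Its level was 14.34, 14.32, 14.40 and 14.37 in controls, 14.46, 14.30, 14.19 and 14.28 in mated and 14.36, 14.31, 14.23 and 14.19 in SF-infused hens. The 12 hens spanned 0.27 and the groups overlapped. The difference was -0.05 for mating (SE 0.08, 95% confidence interval -0.23 to 0.14) and -0.08 for SF-infusion (SE 0.08, interval -0.27 to 0.10), with unadjusted p of 0.581 and 0.352.

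ACTA2, the smooth muscle alpha-actin, read 14.04, 13.58, 13.73 and 14.07 in controls, 13.95, 13.78, 13.71 and 14.23 in mated and 13.84, 14.09, 14.07 and 13.85 in SF-infused hens. Control replicate 2 was the lowest hen and mated replicate 4 the highest, with all groups overlapping. Differences were 0.06 (interval -0.27 to 0.39) and 0.10 (interval -0.22 to 0.43), with unadjusted p of 0.691 and 0.494. Actins are near-identical in sequence and probe sequences were not used here, so signal shared with other actin transcripts cannot be set apart. Of the other actins, cytoplasmic ACTB differed by -0.02 and -0.01, and skeletal ACTA1 by -0.22 and -0.31 (unadjusted p 0.226 and 0.0955), the latter crossing the threshold without SF replicate 1 (-0.43, unadjusted p = 0.0231). Cardiac ACTC1 went from 12.25 ± 1.05 in controls to 11.16 ± 0.93 and 11.03 ± 1.05, with unadjusted p of 0.122 and 0.088. Without control replicate 1 ACTC1 crossed the unadjusted threshold in both comparisons, and without SF replicate 1 in that with SF-infusion, at p as low as 0.0435 and 0.0249.

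TAGLN codes for transgelin, an actin cross-linking protein that is among the earliest markers of smooth muscle. Controls read 14.29, 14.19, 14.30 and 14.43, mated hens 14.28, 14.29, 14.04 and 14.24, and SF-infused hens 14.33, 14.28, 14.25 and 14.40. Mated replicate 3 was the lowest and the rest lay close together. Differences were -0.09 (interval -0.29 to 0.11, unadjusted p = 0.353) and 0.01 (interval -0.19 to 0.21, unadjusted p = 0.908).

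MYLK codes for the myosin light chain kinase that starts contraction. It read 14.03, 13.82, 13.93 and 14.02 in controls, 14.06, 13.94, 13.68 and 13.82 in mated and 13.95, 13.94, 13.85 and 13.88 in SF-infused hens. The SF-infused hens all lay within the range of the controls. Differences were -0.08 (interval -0.29 to 0.14, unadjusted p = 0.447) and -0.05 (interval -0.26 to 0.17, unadjusted p = 0.637).

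CALD1 codes for caldesmon, which holds back the myosin motor on actin until calcium rises. It read 12.73, 12.56, 12.81 and 13.23 in controls, 12.73, 12.68, 12.23 and 12.84 in mated and 12.70, 12.52, 12.29 and 12.83 in SF-infused hens. Control replicate 4 was the highest, and mated replicate 3 and SF replicate 3 were the lowest. Differences were -0.21 (interval -0.61 to 0.19, unadjusted p = 0.265) and -0.25 (interval -0.65 to 0.15, unadjusted p = 0.197).

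The second reading gave like values. For the 3 further MYH11 features the difference was between -0.21 and -0.01 after mating and between -0.11 and -0.02 after SF-infusion. For the 2 MYLK features it was -0.24 and -0.04 after mating and -0.04 and 0.08 after SF-infusion. For the 2 CALD1 features it was -0.10 and -0.10 after mating, and -0.16 and -0.19 after SF-infusion. None of the 7 reached an unadjusted limma p of 0.05 in any comparison, the lowest being 0.217. Of all features 2.22% did so for mating, 6.47% for SF-infusion and 4.7% between the treatments, so a count of 0 among 7 says little. One MYH11 feature spanned 1.09 over the hens, against 0.27 for the member feature.

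**Figure D2:**
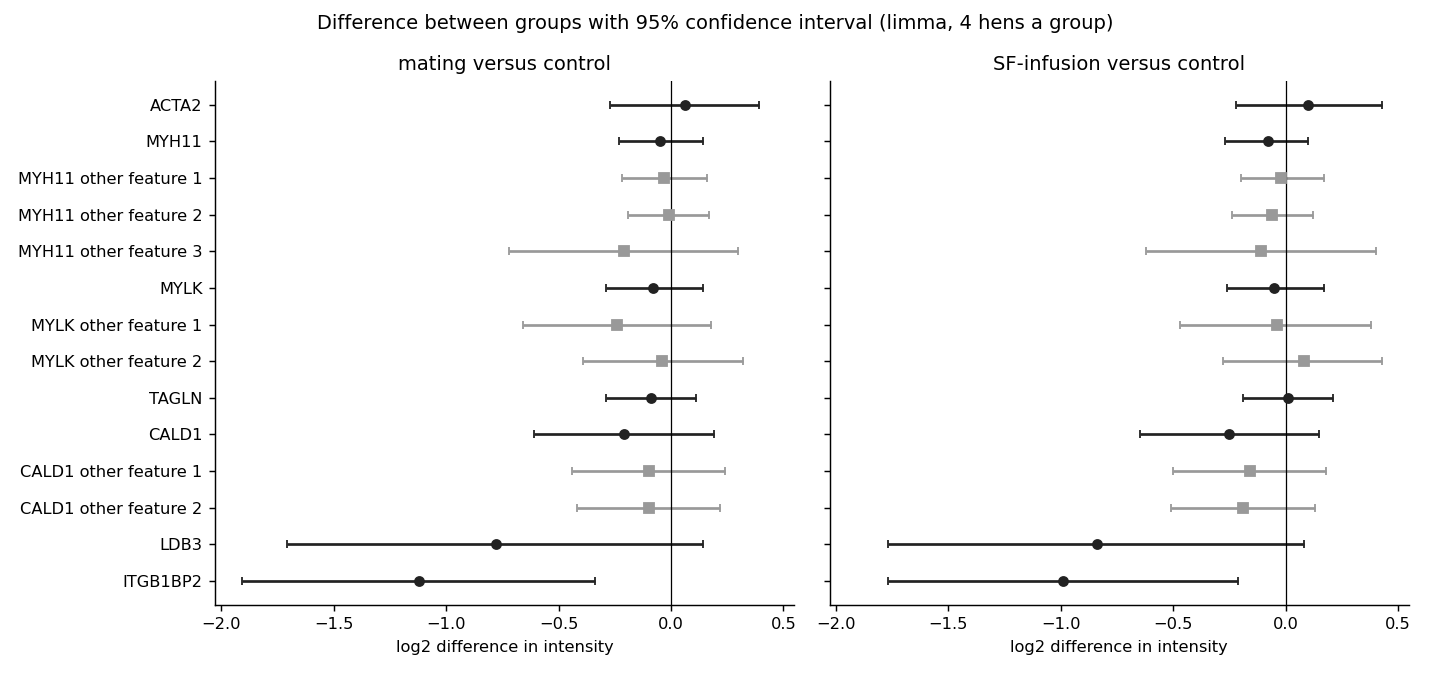
Log2 difference from control (horizontal axis) with 95% confidence interval for the 7 members (black circles) and 7 further features of MYH11, MYLK and CALD1 (grey squares), after mating (left) and SF-infusion (right). The interval lies wholly below 0 for ITGB1BP2 only, from -1.91 to -0.34 after mating and from -1.77 to -0.21 after SF-infusion, before adjustment for the number of features.

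Over the 7 members the median difference was -0.09 after mating, with 6 below 0, and -0.08 after SF-infusion, with 5 below 0. Over all features the median was 0.001 and 0.009. For the 5 filament and kinase genes alone it was -0.08 and -0.05.

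Mating was set against SF-infusion to ask whether the presence of sperm and the act of mating went with a different level. None of the 7 members was called, where 4.7% of all features were called, 2.04% higher and 2.66% lower, and 3.04% had groups that do not overlap. ITGB1BP2 differed by -0.13 (interval -0.91 to 0.65, unadjusted p = 0.72) and LDB3 by 0.06 (interval -0.87 to 0.98, unadjusted p = 0.895). For the other members the difference was between -0.10 and 0.04.

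Hens varied in a way that several members shared. Mated replicate 3 was the lowest of 12 hens for MYH11, MYLK, TAGLN and CALD1 and, at 6.21, for ITGB1BP2. Its mean deviation over the 5 filament and kinase genes was -0.25, the furthest below 0, and control replicate 4 was furthest above at 0.21. The same hen had the lowest array weight, 0.404, when limma weighted arrays by how well they fit. Its low reading was not particular to the members. It also had the lowest means for marker lists, described below, of fibroblasts (11.54), peripheral nerve (7.56), ciliated cells (11.54) and interstitial cells of Cajal (6.47). It was not the lowest for striated muscle, endothelium, pericytes, stratified squamous epithelium, eggshell gland or T lymphocytes. No filament or kinase gene was called with all 12 arrays, and none without mated replicate 3. In the latter fit 5.64% of all features were called for mating and 8.64% for SF-infusion.

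**Figure D3:**
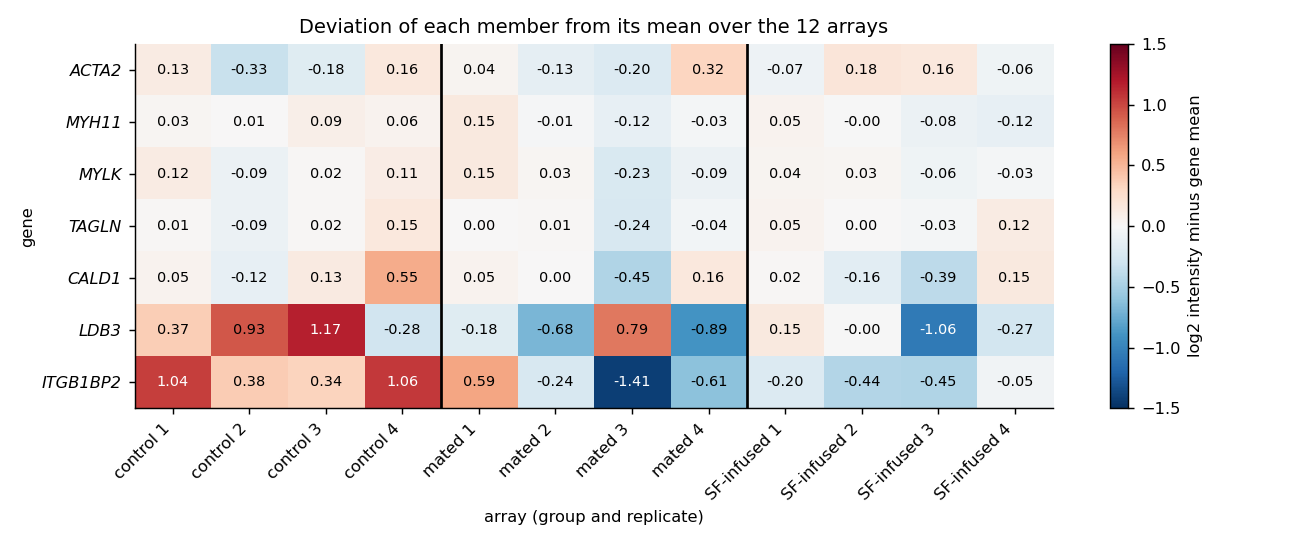
Log2 intensity of each member (rows) in each hen (columns) minus that gene's mean over the 12 arrays, red above and blue below. Mated replicate 3 is below 0 for every member but LDB3, and the widest ranges are those of ITGB1BP2 (2.47) and LDB3 (2.23).

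Across the 12 hens 21 pairs of members were correlated, and 7 had an adjusted p for Pearson's r under 0.05. MYLK and ITGB1BP2 gave r = 0.81 (permutation p = 0.0019, adjusted 0.0227) and Spearman's rho = 0.71 (permutation p = 0.0119, adjusted 0.0833). With group means removed r was 0.91, and without the 2 hens furthest from the median of MYLK it was 0.66. TAGLN and CALD1 gave r = 0.80 (permutation p = 0.00325, adjusted 0.0227) and rho = 0.63 (permutation p = 0.0317, adjusted 0.133), and r = 0.49 without the 2 furthest hens. MYH11 and MYLK gave r = 0.78 (permutation p = 0.00302, adjusted 0.0227) and rho = 0.75 (permutation p = 0.00684, adjusted 0.0773), and 0.58 without the 2 furthest hens. MYLK and TAGLN gave r = 0.71 (permutation p = 0.0102, adjusted 0.0465), and 0.57 without the 2 furthest hens. CALD1 and ITGB1BP2 gave r = 0.69 (permutation p = 0.0135, adjusted 0.0465), and only 0.27 without the 2 furthest hens. No pair passed the adjusted threshold by rho, and these relations rested in part on the outlying hens.

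MYH11 and ITGB1BP2 gave r = 0.67 (permutation p = 0.0155, adjusted 0.0465; rho 0.75, permutation p = 0.00736, adjusted 0.0773), and 0.51 without the 2 furthest hens. MYH11 and LDB3 gave r = 0.22 (permutation p = 0.482, adjusted 0.633; rho 0.32, permutation p = 0.309, adjusted 0.499), and 0.63 without them. LDB3 correlated with ACTA2 at r = -0.68 (permutation p = 0.0155, adjusted 0.0465; rho -0.66, permutation p = 0.0237, adjusted 0.125), which became -0.50 without the 2 furthest hens. With ITGB1BP2 it gave r = 0.14 (permutation p = 0.668, adjusted 0.811), although both were lower on average after each treatment. With group means removed, r of LDB3 and ITGB1BP2 was -0.47, a value that was not tested.

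LDB3 was high where marker genes of stratified squamous epithelium were low. The UVJ is cut from a passage between shell gland and vagina, and the level of 9 lists of marker genes for other cell types was computed on each array as the mean log2 intensity of a list. Over 63 relations, 7 members by 9 lists, 3 had an adjusted p for r under 0.05. The lists were chosen with earlier results of these data known, and the relations after values were seen. The adjustment covers only these 63, so its p-values describe the relations and cannot measure chance. LDB3 against the stratified squamous epithelium list gave r = -0.92 (permutation p = 2e-05, adjusted 0.00126) and rho = -0.91 (permutation p = 0.00011, adjusted 0.00693). With group means removed r was -0.93, without the 2 furthest hens -0.85, and with any 1 hen left out between -0.96 and -0.89.

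The squamous list, 13 of 18 genes measured, lay between 9.16 and 11.13 in controls, 9.59 and 11.29 in mated and 10.53 and 11.43 in SF-infused hens. Its highest control, replicate 4 at 11.13, was the control with the lowest LDB3, and its lowest hen, control replicate 3 at 9.16, had the highest LDB3. Of the 13 genes 5 were called after SF-infusion, all higher, where 4.15% of all features were called higher. None was called after mating, where 2.22% of all features were called. The eggshell gland list, 14 of 16 genes measured, lay between 10.29 and 13.24 in controls, 9.36 and 11.72 in mated and 8.76 and 11.65 in SF-infused hens. Of its 14 genes 1 was called lower after mating and 6 lower after SF-infusion, where 0.867% and 2.32% of all features were called lower. The list correlated with LDB3 at r = 0.72 (permutation p = 0.00897, adjusted 0.0628; rho 0.58, permutation p = 0.0518, adjusted 0.273). The part of these epithelia in the LDB3 difference was not tested.

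**Figure D4:**
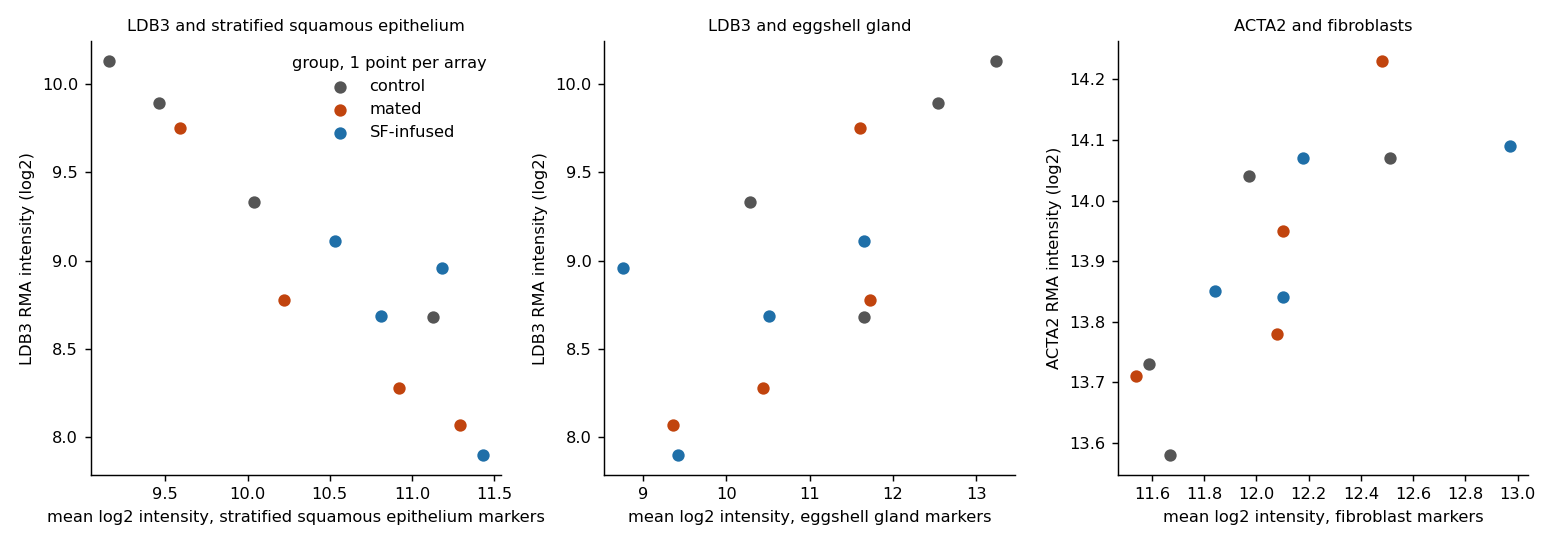
Log2 RMA intensity of LDB3 or ACTA2 (vertical axes) against the mean log2 intensity of a list of cell type markers (horizontal axes), 1 point per array, coloured by group. LDB3 declines as the stratified squamous list rises (r = -0.92) and rises with the eggshell gland list (r = 0.72), and ACTA2 rises with the fibroblast list (r = 0.80), within groups as well as between them.

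The other relations past the adjusted threshold by r were LDB3 with the peripheral nerve list and ACTA2 with the fibroblast list. The former gave r = -0.79 (permutation p = 0.0022, adjusted 0.0462; rho -0.78, permutation p = 0.00367, adjusted 0.0476), and -0.97 without the 2 furthest hens. The latter gave r = 0.80 (permutation p = 0.00156, adjusted 0.0462; rho 0.87, permutation p = 0.00039, adjusted 0.0123), and 0.82 without the 2 furthest hens. The fibroblast list, 12 of 15 genes measured, lay between 11.59 and 12.51 in controls, 11.54 and 12.48 in mated and 11.84 and 12.97 in SF-infused hens. None of its genes was called, where 2.22% of all features were called for mating, 6.47% for SF-infusion and 4.7% between the treatments. ACTA2 followed other lists nearly as closely. It gave r = 0.75 with pericytes, 0.74 with peripheral nerve, 0.75 with squamous epithelium and -0.74 with eggshell gland (adjusted permutation p 0.0545 to 0.0546). By rho, ACTA2 with peripheral nerve (0.78) and with squamous epithelium (0.80) passed, both at adjusted permutation p = 0.0476. LDB3 with the ciliated cell list gave r = -0.75 (adjusted permutation p = 0.0545). ITGB1BP2 had no relation past the threshold with any of the 9 lists, the nearest by r being the T lymphocyte list at r = -0.46 (permutation p = 0.131, adjusted 0.55; rho -0.67, permutation p = 0.0205, adjusted 0.161). With group means removed it gave r = 0.72 with the ciliated cell list, -0.69 with the endothelium list and -0.29 with the T lymphocyte list, and these values were not tested.

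Because LDB3 and ITGB1BP2 are best known from striated muscle, markers of that tissue were examined. Of 74 genes listed, 53 were measured and 46 were above the random-sequence control on all arrays. The list held bright and dim features. The brightest features were those of ACTA1 (14.76), HSPB7 (12.36), TMOD1 (12.30), FBXO32 (12.27) and ACTC1 (11.48). The feature of MYOD1, the factor that commits cells to skeletal muscle, averaged 4.47. Levels depend on each feature's probes, so this order does not rank the transcripts. For ACTA1 and ACTC1, signal shared with other actins cannot be set apart. MYBPC3, cardiac myosin-binding protein C, was above the random-sequence control on 0 of 12 arrays. The mean of the 46 lay between 7.57 and 7.87 in controls, 7.54 and 7.75 in mated and 7.45 and 7.82 in SF-infused hens. The groups overlapped on this measure.

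Of the 53 striated genes 3 were called higher and 2 lower after mating, and 4 higher and 3 lower after SF-infusion. Of all features 1.35% were called higher and 0.867% lower after mating, and 4.15% and 2.32% after SF-infusion. The list medians were -0.01 and -0.03. Without the dimmest 25% of features 19 of the list remained, with 0 called after mating and 4 after SF-infusion. Of all features left by that filter 1.39% were called after mating and 5.7% after SF-infusion. MYOZ2, a Z-disc protein that binds calcineurin, fell by 0.80 after mating (SE 0.23, unadjusted p = 0.00511), from 6.72 ± 0.40 to 5.93 ± 0.28. MYL1, a fast skeletal myosin light chain, rose by 0.54 after mating (SE 0.15, unadjusted p = 0.00342), from 5.06 ± 0.31 to 5.60 ± 0.14. UNC45B, a chaperone for muscle myosin, rose by 0.40 after mating (SE 0.12, unadjusted p = 0.00735). MYL1, UNC45B and XIRP1 all read below 6 on every array, within 2 log2 units of the random-sequence control. XIRP1, an actin-binding protein of cell junctions in heart muscle, was higher after mating than after SF-infusion by 0.44 (SE 0.13, unadjusted p = 0.00592). These calls held whichever array was left out, and with the array number as a covariate those of MYOZ2 (-0.32), MYL1 (0.371) and UNC45B (0.15) after mating did not. MYL1 was also higher after mating than after SF-infusion, by 0.40 (unadjusted p = 0.0202), and this was lost without SF replicate 3. After SF-infusion the genes called lower were ACTN2 (-1.34), MYL3 (-0.58) and MYF5 (-0.31). Those called higher were TRIM63 (0.64), HSPB7 (0.62), ANKRD2 (0.41) and MYH13 (0.28). MYH13 read between 4.41 and 4.89 over all hens, also near the random-sequence control. The count of 7 became 3 without SF replicate 3, where 4.02% of all features were called. It also became 3 with the array number as a covariate, where 2.52% were called.

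The rest of the smooth muscle apparatus was given by 4 lists. Among other contractile and anchoring proteins, 34 of 45 genes were measured and none was called in any comparison, with medians of 0.01 and 0.03 against control. The share of all features called was 2.22% for mating, 6.47% for SF-infusion and 4.7% between the treatments. MYL9, the regulatory light chain that MYLK phosphorylates, differed by 0.02 and 0.04 (unadjusted p 0.814 and 0.591). TPM1, a tropomyosin, differed by -0.05 and -0.10 (unadjusted p 0.562 and 0.246). FHL2, a LIM protein of the actin cytoskeleton and nucleus, differed by -0.48 and -0.33 (unadjusted p 0.107 and 0.246). The list mean lay between 12.70 and 13.12 in controls, 12.49 and 13.03 in mated and 12.76 and 13.12 in SF-infused hens.

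Among genes for calcium and kinase control of contraction, 27 of 38 were measured, 1 was called lower after mating and 2 lower after SF-infusion, and none higher. Called lower were 0.867% of all features after mating and 2.32% after SF-infusion. PPP1CB, the catalytic subunit of the phosphatase that reverses the action of MYLK, fell by 0.18 after SF-infusion (SE 0.07, unadjusted p = 0.0332). Its SF-infused hens (13.18 to 13.31) all lay below the controls (13.39 to 13.48), where 3.84% of all features did not overlap. The mated hens (13.26 to 13.38) also all lay below the controls, where 1.34% of all features did not overlap. The PPP1CB difference after mating was -0.11 and was not called. ITPR2, a channel that releases calcium from internal stores, fell by 0.59 after SF-infusion (SE 0.24, unadjusted p = 0.0296); it is also a member of the eggshell gland list. RYR3, another release channel, fell by 0.74 after mating (SE 0.32, unadjusted p = 0.041). These 3 calls were fragile. PPP1CB was past the threshold in 8 of 12 fits with 1 array left out (lost without control replicate 1, 3 or 4 or SF replicate 3, p up to 0.0917). ITPR2 was past it in 8 (lost without control replicate 2 or 3 or SF replicate 2 or 3, p up to 0.0819). RYR3 was past it in 6 (lost without control replicate 2 or 4, mated replicate 2, 3 or 4, or SF replicate 3, p up to 0.123).

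Among factors that control smooth muscle genes, 19 of 32 were measured, 1 was called higher after mating and 2 lower after SF-infusion. Of all features 1.35% were called higher after mating and 2.32% lower after SF-infusion. HEYL, a Notch target that represses transcription, fell by 1.56 after SF-infusion (SE 0.51, unadjusted p = 0.0105), from 9.59 ± 0.63 to 8.03 ± 0.69. TEAD1, the DNA-binding partner of YAP, fell by 0.70 (SE 0.24, unadjusted p = 0.0142), from 10.17 ± 0.31 to 9.47 ± 0.47. Both calls held whichever array was left out, but with the array number as a covariate both differences turned positive, to 0.689 for HEYL and 0.516 for TEAD1. The slope of that covariate came only from the order of arrays within groups, so this fit cannot decide whether the differences hold. HAND1 was higher by 0.56 after mating (SE 0.23, unadjusted p = 0.0366), and this was lost without control replicate 1, 2 or 3 or mated replicate 3 or 4, with p up to 0.106. MYOCD, a coactivator known from mammals to drive smooth muscle genes, differed by 0.03 and -0.14 (unadjusted p 0.941 and 0.686).

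Among receptors and channels for contracting and relaxing signals, 33 of 40 were measured and 1 was called, lower after SF-infusion, where 2.32% of all features were called lower. PTGER3, a prostaglandin E2 receptor that favours contraction, fell by 1.23 after SF-infusion (SE 0.53, unadjusted p = 0.0405), from 9.52 ± 0.47 to 8.28 ± 0.72. It was past the threshold in 5 of 12 fits with 1 array left out, with p up to 0.116, and was lost without control replicate 1, 2 or 3, mated replicate 2, or SF replicate 2, 3 or 4. The array number as a covariate turned its difference to 0.975. OXTR, the receptor for mesotocin in birds, differed by 0.22 and 0.13 (unadjusted p 0.408 and 0.62), and GJA1, the gap junction protein that couples muscle cells, by 0.21 and 0.06 (unadjusted p 0.0594 and 0.584). For GJA1 the mated hens (13.71 to 13.77) all lay above the controls (13.34 to 13.60), where 1.34% of all features did not overlap.

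**Figure D5:**
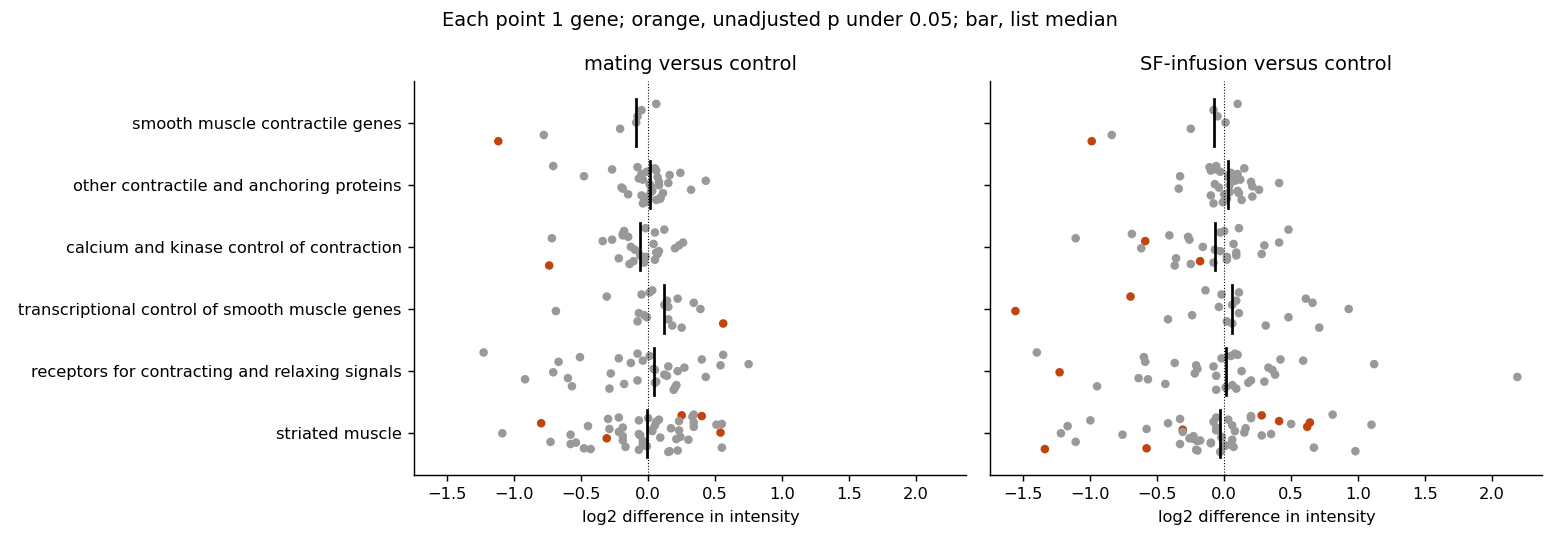
Log2 difference from control (horizontal axis) for each measured gene of the member group and of 5 muscle lists (rows), 1 point per gene, orange where the unadjusted p was under 0.05, with the median of each list as a black bar. List medians lie between -0.09 and 0.12, and ITGB1BP2 is the member shown in orange in both panels.

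Genes whose hen-to-hen pattern was most like that of the members were sought among 6324 genes of at least median brightness, by Pearson's r over the 12 arrays after removing group means. The nearest were NAP1L4 (r = 0.92), HSPB1 (r = 0.89), ABCC9 (r = 0.88), EVI5 (r = 0.88), CAP2 (r = 0.88), MYO18A (r = 0.87), KLHDC8B (r = 0.87) and PPP1R12A (r = 0.87). HSPB1 codes for a small heat shock protein that binds actin, ABCC9 for a subunit of the ATP-sensitive potassium channel, and PPP1R12A for the myosin-binding subunit of the phosphatase that opposes MYLK. None of the 8 was called in any comparison, where 2.22% of all features were called for mating, 6.47% for SF-infusion and 4.7% between the treatments. Each member was also set against the profile of the other 6, which leaves out its own values. This gave r = 0.89 for MYLK, 0.81 for ITGB1BP2, 0.75 for TAGLN, 0.68 for CALD1, 0.67 for MYH11, 0.25 for ACTA2 and -0.54 for LDB3.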

How the data were processed

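The authors deposited linear intensity values of 12 NimbleGen arrays, made by robust multichip averaging (RMA: background adjustment, quantile normalisation between arrays, summary over the 3 probes of a feature). A deposited series table gave identical values (largest difference 0.0). The deposited number of probes, another column, only described features. Precision was limited by 4 hens per group. The array's genome build is not given in the sources used here.

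Intensities were taken to log2 without a pseudocount. A linear model of group means was fitted to all arrays with limma 3.58.1 (R 4.3.3) and empirical Bayes moderation, with two-sided p-values adjusted by Benjamini-Hochberg over 37374 features. The script was tested on simulated data. Exact permutation tests used all 70 regroupings of 4 against 4 arrays, and correlations 100000 resamples.

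Members, 14 gene lists and tests were chosen with earlier results of these data known, so no test over a list was run. The genes named were all members, up to 4 genes per muscle list with the smallest unadjusted p under 0.05, the 8 nearest in pattern, and some further muscle genes and actins chosen after their values were seen, as were the correlations with cell type lists. A gene of a list was represented by its brightest feature. Endothelium, pericytes, interstitial cells of Cajal and peripheral nerve had 0 genes called in any comparison. Of all features 2.22% were called for mating, 6.47% for SF-infusion and 4.7% between the treatments. Ciliated cells had 4 of 17 higher after SF-infusion. T lymphocytes had 1 of 14 lower after SF-infusion and 1 higher in mated than in SF-infused hens. The shares of all features were 4.15% higher and 2.32% lower after SF-infusion, and 2.04% higher in mated than in SF-infused hens.

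The labels do not say whether replicate numbers pair the hens, and the main fit did not treat them as pairs. Alternatives were median centring, quantile normalisation, the series table, filters on dim features, a fit restricted to the compared groups, a replicate block, array number as a covariate, trended and robust variance, array weights and leaving out each array.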

Additional observations from a re-analysis of the deposited data

How the results depend on the processing

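The count of 1 member called against control became 0 for both treatments without the dimmer 50% of features. That filter removes ITGB1BP2 and LDB3, and under it 1.02% of the remaining features were called for mating and 5.78% for SF-infusion. The count was also 0 for both once array number was a covariate, where 1.85% and 2.52% of all features were called. It became 2 for SF-infusion with array weights, where 10.9% of all features were called. With 1 array left out it ranged from 1 to 2 for both treatments, while the share of all features called ranged from 1.58% to 5.64% for mating and from 4.02% to 9.38% for SF-infusion, and the median difference ranged from -0.140 to -0.030 for mating and from -0.112 to -0.054 for SF-infusion. For mating versus SF-infusion the count remained 0 and the median ranged from -0.062 to 0.034. With 1 array left out, 3.36% to 6.79% of all features were called in that comparison.

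The array number follows the order of the groups, so its slope came only from the order of arrays within groups and was carried across them. Differences in that fit have a wider error, and a lost call or turned sign cannot decide between order and treatment. Entered as a covariate, the number moved the median for SF-infusion to 0.158. This turned the sign for mating in ACTA2 (-0.074), MYH11 (0.099) and MYLK (0.086). For SF-infusion it did so in ACTA2 (-0.164), MYH11 (0.212), MYLK (0.280), TAGLN (-0.088), LDB3 (0.396), ITGB1BP2 (0.158), HEYL (0.689), TEAD1 (0.516) and PTGER3 (0.975). Between the treatments it did so in ACTA2 (0.090), MYH11 (-0.113) and LDB3 (-0.562). Array weights turned MYH11 (0.004) and MYLK (0.026) for mating, and MYLK (0.055) and ITGB1BP2 (0.286) between treatments. The cause was not tested. Under these settings ITGB1BP2 after mating, at -0.548 and -0.680, was no longer called, and array weights called LDB3 at -0.998 for mating and -1.037 for SF-infusion.

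With 1 array left out the sign turned for values near 0, ACTA2 for mating (-0.043 to 0.132), TAGLN for SF-infusion (-0.027 to 0.053), and between the treatments MYH11 (-0.018 to 0.073), CALD1 (-0.062 to 0.167), ACTA2 (-0.147 to 0.025), MYLK (-0.092 to 0.034), LDB3 (-0.286 to 0.273) and ITGB1BP2 (-0.467 to 0.201).

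Same-numbered hens of different groups correlated at r = -0.362 to 0.624, over 0.1 in 4 of 12 pairs, and 3 of 12 hens correlated best with their own number. With the number as a replicate block the counts stayed at 1, 1 and 0, where 2.52%, 7.09% and 4.89% of all features were called. Under this block ITGB1BP2 had unadjusted limma p of 0.00385 and 0.00749, and PPP1CB (unadjusted p = 0.0584) and RYR3 (unadjusted p = 0.0568) lost their call, while HAND1 gained one between the treatments (unadjusted p = 0.0333). The block changed no other call among the members and the genes named from each muscle list for the smallest unadjusted p. Array number as a covariate also ended the calls of ITPR2, PPP1CB, RYR3, HAND1, MYL1, MYOZ2 and UNC45B, array weights those of RYR3 and HAND1, and fits of 2 groups alone those of PPP1CB and HAND1. ITGB1BP2 after mating was not past 0.05 in the exact permutation test (p = 0.0857).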
